A study of Mus musculus with 4 samples.

Results

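The claudins described here are the 10 genes Cldn1, Cldn2, Cldn3, Cldn4, Cldn5, Cldn6, Cldn7, Cldn8, Cldn10 and Cldn23, read by every probe that carries one of these names on the array. There are 13 such probes among 39429 gene probes. The study compared ureters of NMRI mouse embryos at E15.5. The cKO embryos (Pax2-cre/+; Trp63(dN-flox/dN-flox)) carry a cre transgene and 2 floxed alleles of the ΔN form of p63, and the control embryos (Trp63(dN-flox/?)) have at least 1 such allele, with no cre listed. Each of the 4 two-colour arrays paired a cKO RNA with a control RNA, both female or both male, with females on replicates 1 and 2 and males on replicates 3 and 4. The cKO RNA was labelled red (AlexaFluor647) in replicates 1 and 3 and green (AlexaFluor555) in replicates 2 and 4.

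Claudins are membrane proteins with 4 transmembrane segments that form the strands of tight junctions, the belts that close the space between neighbouring epithelial cells. Sealing claudins narrow that path, whereas channel-forming claudins let selected ions or water through. The urothelium, the epithelium lining the ureter, keeps urine apart from the tissue beneath it, and tight junctions are part of that barrier. ΔNp63 is a transcription factor that marks the basal layer of stratified epithelia, and Pax2-cre acts in the epithelium of the nephric duct and its derivatives.

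The 3 genes with the most negative mean ratios were Cldn3, Cldn23 and Cldn4, and the first bases of their probes are given to identify the sequences that were read. The probes are 60 bases long, and the first 30 bases of each are printed 5′ to 3′, from the deposited array files. No capitals are used, since no base was singled out.
Cldn3, A_55_P2183473: gcaggcaaaccatgaaacgggccatttcat
Cldn23, A_55_P2177013: ttgagggagaagaaaagaagacagccacct
Cldn4, A_55_P2183453: acaacgtcatccgcgacttctacaacccta
Cldn4, A_51_P356467: accctactaatgaatttctgtagagtggat

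In build mm9, as given by the array files, the Cldn3 probe lies on the plus strand at chr5:135463284-135463342 and the Cldn23 probe on the minus strand at chr8:36888537-36888596. The Cldn4 probes lie on the minus strand at chr5:135422135-135422194 and chr5:135421347-135421406. Exon and untranslated region positions were not analysed here. None of the 13 claudin probes shared a run of 15 or more bases with a probe of another claudin gene, and 11 shared none with any other gene probe. The Cldn3 probe shared 16 bases with a probe of Impdh2, and a Cldn2 probe shared 16 bases with a probe of LOC105243204.

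Median signals per array were between 382 and 617 in the cKO and control channels, and 71.8% to 77.0% of the spots of gene probes exceeded background clearly. Trp63, the targeted gene, was lower by a log2 ratio of -1.37 ± 0.18 (SD, n = 4, adjusted p = 0.00323), although the place of its probe relative to the floxed exons was not analysed here. The labels do not say whether an RNA came from 1 embryo or from a pool, so p-values measure only the spread between these samples. Loss of ΔNp63 and the presence of Pax2-cre cannot be told apart in this design. In RNA of whole ureters, fewer cells of a type and less RNA per cell cannot be told apart either.

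No claudin passed the test between cKO and control ureters. Ratios were fitted with limma over all 21501 genes that had a probe above background, with Benjamini-Hochberg adjustment and a threshold of 0.05. Of the 10 claudins, 9 could be tested, and 0 were called, beside 1.24% of all genes. At an unadjusted p under 0.05, 3 of the 9 (Cldn3, Cldn23 and Cldn4) had lower values in cKO and none had higher ones. Of all genes, 4.31% had lower and 3.73% higher values. The claudins were chosen with earlier results of these data known, so here and below such shares do not test for an excess. The median log2 ratio of the 9 genes was -0.10, with 6 negative and 3 positive, beside a median of -0.00024 over all genes. All 10 claudin probes that entered the fit were well above background in both RNAs on all 4 arrays, so none of them was kept for the level of 1 genotype alone.

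Cldn3, a sealing claudin of many simple epithelia, had the most negative ratio of the claudins tested. Its level was 10.82, 10.69, 10.58 and 11.21 in the cKO RNAs of replicates 1 to 4, against 11.52, 11.87, 11.92 and 11.62 in the control RNAs (normalised log2 intensity). Every cKO RNA lay below every control RNA. The log2 ratio averaged -0.91 ± 0.43 (SD, n = 4), or 1.88-fold lower, with a 95% interval from -1.30 to -0.52 and adjusted p = 0.0771. The ratio varied among arrays, with -1.33 in replicate 3 and -1.18 in replicate 2, -0.70 in replicate 1 and -0.41 in replicate 4. Females averaged -0.94 and males -0.87, a difference that did not pass the cKO-by-sex test (unadjusted p = 0.798). The standard error of that test was 0.135 for every claudin tested, so its p-values do not measure the spread of each gene. With any 1 replicate left out, the Cldn3 ratio was from -1.10 to -0.71. Here and below, such a fit has only 1 array for 1 dye assignment and leaves 1 residual degree of freedom per gene. Calls and p-values from it do not measure how steady a ratio was.

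Cldn23, a claudin known from the intestinal epithelium, was the steadier of the pair. Its level was 9.60, 9.57, 9.99 and 9.83 in the cKO RNAs, against 10.07, 10.14, 10.7017 and 10.18 in the control RNAs. The control RNA of replicate 3 stood above the other control RNAs. The genotypes did not overlap, and the ratios were -0.47, -0.57, -0.71 and -0.35 in replicates 1 to 4. The mean log2 ratio was -0.53 ± 0.15 (SD, n = 4), or 1.44-fold lower, with a 95% interval from -0.73 to -0.32 and adjusted p = 0.0557. With replicate 1, 2, 3 or 4 left out the ratio was -0.59, -0.47, -0.47 and -0.58, in fits with the limit given for Cldn3. Cldn3 and Cldn23 were the 2 claudins among the 9 whose levels did not overlap between genotypes in the probe tested, which held for 6.38% of all genes. Under 15 alternatives of processing, model or replicates, the Cldn3 ratio stayed between -1.10 and -0.71 and that of Cldn23 between -0.59 and -0.47. The adjusted p fell on both sides of the threshold for either gene. Cldn3 passed in 7 of them, with adjusted p = 0.0249 with no dye term and 0.0178 in the unpaired fit of 8 separate RNAs. Its other passes came with a replicate left out or with a sex term. Such fits leave 1 residual degree of freedom per gene. Cldn23 passed in 6, with adjusted p = 0.0469 at a normexp offset of 16 and 0.0167 with no dye term. Its other passes were of those same kinds, and in the unpaired fit its adjusted p was 0.220. Of all genes, 2.14% were called with no dye term, 1.8% in the unpaired fit and 1.47% at the offset of 16.

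Cldn4, which seals tight junctions and acts with Cldn8 in the collecting duct, was read by a pair of probes. On the brighter probe (A_55_P2183453) its level was 13.87, 13.65, 13.57 and 13.59 in the cKO RNAs, against 14.17, 13.78, 13.72 and 13.94 in the control RNAs, and the groups overlapped. Its ratios were -0.30, -0.13, -0.15 and -0.35 in replicates 1 to 4. That probe gave a log2 ratio of -0.23 ± 0.11 (SD, n = 4), with a 95% interval from -0.43 to -0.04 and adjusted p = 0.467. On the other probe (A_51_P356467) the levels were 12.77, 12.73, 12.73 and 12.88 in the cKO RNAs, against 13.17, 12.98, 13.36 and 13.01 in the control RNAs, with no overlap. The ratios there were -0.41, -0.25, -0.64 and -0.13, and their order among arrays was not that of the brighter probe. The mean was -0.36 ± 0.22, with adjusted p = 0.174 when every probe was tested by itself. Both probes were lower in cKO on all 4 arrays. Among the 10 claudin probes in the fit, 0 were called, beside 1.01% of all probes (0.580% lower and 0.433% higher). An unadjusted p under 0.05 was found for 4, both Cldn4 probes among them, and the share of all probes with such a p was not counted.

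Cldn7, a claudin that also sits on the basolateral membrane and binds EpCAM, differed little between genotypes. Its levels were 13.75, 13.71, 13.58 and 13.59 in the cKO RNAs, against 13.86, 13.80, 13.76 and 13.61 in the control RNAs. The ratio was negative on all 4 arrays (-0.11, -0.090, -0.18 and -0.026) but small, at -0.10 ± 0.064 (SD, n = 4), with a 95% interval from -0.28 to 0.07 and adjusted p = 0.995. In all, 4 of the 9 claudins tested (Cldn3, Cldn4, Cldn7 and Cldn23) had the same sign on every array, all of them negative, where 15.3% of all genes had 1 sign throughout. A second Cldn7 probe (A_55_P2158663, chr11:69778772-69778831) was well above background on 0 arrays in cKO and on 2 in control RNA and was not tested. Its levels were 6.40 to 6.52 in cKO and 6.38 to 6.50 in control RNA.

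Cldn1, a barrier claudin whose loss in mice impairs the epidermis, had levels of 9.79, 9.9998, 9.76 and 10.11 in the cKO RNAs, against 9.88, 9.72, 10.01 and 10.12 in the control RNAs. The groups overlapped, and the ratios were -0.08, 0.28, -0.24 and -0.0046 in replicates 1 to 4. Their mean was -0.012 ± 0.22 (SD, n = 4) with a 95% interval from -0.22 to 0.19 and adjusted p = 1.00, and with median centring in place of loess it was 0.03. The interval leaves out differences of more than 0.22 on the log2 scale in either direction.

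Cldn8, a sealing claudin of the distal nephron and collecting duct, had levels of 14.95, 15.05, 15.17 and 14.997 in the cKO RNAs, against 14.92, 14.72, 15.20 and 15.12 in the control RNAs. Its ratios were 0.034 and 0.33 in the females and -0.031 and -0.12 in the males, a mean of 0.052 ± 0.19 (SD, n = 4, 95% interval from -0.18 to 0.29, adjusted p = 1.00). Although both females were above 0 and both males below it, the difference between the sexes did not pass limma's cKO-by-sex test (unadjusted p = 0.342, adjusted p = 1.00).

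Cldn6, a claudin of embryonic epithelia, was present in every RNA, with levels of 14.09, 14.07, 14.15 and 14.24 in the cKO RNAs, against 14.07, 14.44, 14.42 and 14.21 in the control RNAs. Replicates 2 and 3 gave ratios of -0.37 and -0.26, while replicates 1 and 4 were at 0.026 and 0.032. The mean was -0.14 ± 0.20 (SD, n = 4), with a 95% interval from -0.39 to 0.10 and adjusted p = 0.994.

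Cldn5, the main claudin of endothelium, had levels of 12.64, 12.68, 12.23 and 12.58 in the cKO RNAs, against 12.62, 12.75, 11.84 and 12.17 in the control RNAs. The female ratios were 0.021 and -0.067 and the male ratios 0.39 and 0.41. The mean was 0.19 ± 0.25 (SD, n = 4), with a 95% interval from -0.08 to 0.46 and adjusted p = 0.905, and the sex difference did not pass its test (unadjusted p = 0.114, adjusted p = 1.00). Of 13 endothelial marker genes, limma called 0, beside 1.24% of all genes. None had an unadjusted p under 0.05, and the median log2 ratio was 0.09. Over the 9 claudins, neither the sex test nor the test of the dye effect called any gene or gave an unadjusted p under 0.05, beside 0.0698% of all genes called for sex and 0% for dye. The sex test used the same standard error for all 9, so it does not show that the sexes were alike.

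Of the channel-forming claudins, Cldn10, which forms ion channels in the kidney tubule, had levels of 8.47, 8.46, 8.55 and 8.51 in the cKO RNAs, against 8.04, 8.75, 8.35 and 8.01 in the control RNAs. The cKO values were close together and lay within the range of the control values. The mean ratio was 0.21 ± 0.36 (SD, n = 4), with a 95% interval from -0.13 to 0.54 and adjusted p = 0.974. The ratios were 0.42, -0.29, 0.20 and 0.50, and replicate 2 was the only array below 0. Without it the ratio was 0.41, in a fit with the limit given for Cldn3.

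Cldn2, the cation and water channel of the proximal tubule, was at or near background. Its probe A_52_P251450 (chrX:136345244-136345303) was well above background on 2 of 4 arrays in either RNA, with levels from 6.42 to 6.70 in cKO and from 6.34 to 7.37 in control RNA. Its probe A_66_P122511 (chrX:136343889-136343948) was well above background on 0 arrays in either RNA, with levels from 6.13 to 6.27 in cKO and from 6.11 to 6.36 in control RNA. Neither probe was tested, and no fold is given for them.

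None of the other claudins in a chosen list passed the test either. The list also holds the claudin domain genes Cldnd1 and Cldnd2, and Cldn26, which the array names Tmem114. It does not hold every other claudin on the array. Cldn34c1 and Cldn34c4, whose probes entered the fit, are among those left out. Of the 17 listed genes, 10 were tested, Cldnd1 and Cldnd2 among them. Limma called 0, beside 0.712% of all genes called lower and 0.526% higher, and 1 had an unadjusted p under 0.05. That gene was Cldn13, at -0.31 ± 0.32 (SD, n = 4, adjusted p = 0.595). The next smallest p-values belonged to Cldn17 at -0.17 ± 0.13, Cldn15 at -0.11 ± 0.17 and Cldn9 at -0.13 ± 0.29, with adjusted p from 0.710 to 1.00. The median log2 ratio of these 10 genes was -0.03.

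The 32 genes of tight junction partners include the occludin family, junctional adhesion molecules, scaffold proteins and polarity proteins. Of these genes 1 rose and 0 fell, beside 0.526% of all genes called higher and 0.712% lower. Igsf5, which encodes the junctional adhesion molecule JAM4, had levels of 11.95, 12.05, 12.17 and 12.10 in the cKO RNAs, against 11.22, 11.37, 11.57 and 11.36 in the control RNAs. It rose by 0.69 ± 0.06 on the log2 scale (SD, n = 4), or 1.61-fold, with adjusted p = 0.0138, and the groups did not overlap. At an unadjusted p under 0.05, 4 of the 32 had higher and 2 lower values, beside 3.73% of all genes higher and 4.31% lower. The median of the list was 0.03.

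Among partners with small p-values that did not pass were the polarity gene Pard6b at 0.52 ± 0.21 (adjusted p = 0.0616) and Cgn, which encodes the plaque protein cingulin, at 0.47 ± 0.27 (adjusted p = 0.215). Ocln, the occludin gene, was at 0.04 ± 0.22, the scaffold gene Tjp1 at 0.11 ± 0.23 and Epcam at -0.10 ± 0.079, each with adjusted p = 1.00. Of the 32 partners, 20 had a positive and 12 a negative mean ratio, beside 10723 positive and 10778 negative over all genes.

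Markers of the cells that can carry claudins moved unevenly. Beside the lists below, limma called 0.526% of all genes higher and 0.712% lower. At an unadjusted p under 0.05, 3.73% of all genes were higher and 4.31% lower. Of 18 general epithelial genes, Krt18 rose (0.50 ± 0.14, adjusted p = 0.0377) and none fell. Their median was -0.10, with 13 negative and 5 positive ratios. Before adjustment, limma gave a p below 0.05 to 4 of the negative ratios: Cdh1 (-0.40), Krt7 (-0.29), St14 (-0.29) and Ehf (-0.26). The same held for 3 of the positive ratios: Krt18, Krt8 (0.37) and Elf3 (0.33). The summed level of the list was 19.17 to 19.26 in cKO RNAs and 18.99 to 19.14 in control RNAs (log2 intensity). Krt8 and Krt18 had the highest levels of the list in every RNA, so they weigh most in that sum. Of 12 basal cell genes, 8 fell (Trp63, Krt5, Krt14, Krt15, Krt17, Itgb4, Dapl1 and Cdh3), with a median of -1.08 and summed levels of 15.43 to 15.60 in cKO and 15.81 to 16.14 in control RNAs. Of 10 superficial cell genes, Krt20 rose by 1.92 ± 0.19, while Upk2 and Grhl3 fell by 0.54 ± 0.11 and 0.68 ± 0.22, with 5 positive and 5 negative ratios and a median of -0.00028.

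Of 13 collecting duct genes tested, Tfcp2l1 and Wnt9b rose and Elf5 fell, 9 ratios were positive and 4 negative, 8 were higher and 1 lower at an unadjusted p under 0.05, and the median was 0.35. Of 11 nephron genes Cubn rose by 2.22 ± 0.28 and none fell, with 6 positive and 5 negative ratios and a median of 0.05. Of 12 ureter mesenchyme genes limma called 0 (2 higher at an unadjusted p under 0.05), with a median of 0.03. Of 10 skeletal muscle genes Myl1 and Ckm fell, all 10 ratios were negative, 7 had an unadjusted p under 0.05, and the median was -0.51, with summed levels of 14.90 to 15.27 in cKO and 15.29 to 15.47 in control RNAs. The part of these cell types in the values of Cldn3, Cldn23 and Cldn4 was not tested.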

How the data were processed

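Intensity values were deposited by the authors as Agilent Feature Extraction 10.7.3.1 files, which give a mean signal and a local background for every spot and channel, per the file headers. A log2 table of ratios was also deposited by the authors. It ran as cKO over control against the scanner values (r from 0.979 to 0.983 in size), its columns have a median of 0 and 32.2% to 32.6% of values at 0, and the origin of the zeros was not analysed here. The further flags and quality values in those files are of other kinds, as deposited. All arrays share a slide and a scan date.

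Background was corrected with normexp (offset 50), loess was applied to the ratios of each array, and 17 to 33 nonuniform spots per array were left out. The 4 spots of a probe were averaged. Levels are channel values after loess and Aquantile normalisation. Probes entered the fit if, in the cKO or in the control RNA, a share of 0.5 or more of their spots exceeded background clearly on every array (28611 probes), and the brightest kept probe stood for a gene. The model was limma 3.58.1 (R 4.3.3) with a coefficient for cKO over control and an intercept for the dye. The array is the pair. Tests are two-sided, adjusted by Benjamini-Hochberg over all genes or all probes, and the fit was tested on simulated data. The number of arrays limits the precision.

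The claudins and the lists were chosen with earlier results of these data known. All claudin probes are named, as are Trp63, list genes that passed the test and, for other claudins and junction partners, the 4 with the smallest p, except that 1 result is not reported here. Ocln, Tjp1 and Epcam were added as examples. Alternatives covered the filter, background correction, normalisation, offset, deposited table, replicates, dye and sex terms, pairing, eBayes options and probe choice.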

Additional observations from a re-analysis of the deposited data

Results flagged for a closer look

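Of 39 sets of 4 values checked (the cKO levels, control levels and ratios of each claudin probe), 1 held a sample far from the others, where chance gives about 1 in 20. The Cldn23 level in the control RNA of replicate 3 was 10.7017 (normalised log2 intensity), against 10.07 to 10.18 in the other control RNAs. Without replicate 3 the Cldn23 ratio was -0.47, with an adjusted p of 0.302 from limma.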

How the results depend on the processing

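The number of claudins called lower, 0 as reported, was 1 with a normexp offset of 16 (Cldn23), 2 with no dye term and 2 with a sex term (Cldn3 and Cldn23 in both fits), 1 with the channels as 8 separate RNAs (Cldn3), and 1 to 2 with a replicate left out. The number called higher was 0 to 1 with a replicate left out (Cldn10 without replicate 2). Counted by probe, leaving out a replicate gave 1 to 3 lower (the second Cldn4 probe without replicate 4) and 0 to 1 higher. For other claudins and junction partners it gave 0 to 2 lower and 1 to 4 higher, and the deposited table gave 0 higher, where limma called 1 gene of all tested. The Cldn1 ratio, not called, changed sign with median centring (0.031) and ranged from -0.083 to 0.059 with a replicate left out, and Cldn8 ranged from -0.060 to 0.16. Cldn3 was called in 7 of 15 alternatives (adjusted p from 3.65e-09 to 0.50) and Cldn23 in 6 of 15 (from 0.0032 to 0.322). Fits without replicate 2 and without replicate 4 called 939 and 1608 genes in all, against 266 as reported; a sex term leaves 1 residual degree of freedom per gene. A fit with a replicate left out leaves 1 as well. Both kinds of fit are among those that called Cldn3 or Cldn23. Of all genes, 1.47% were called in either direction at a normexp offset of 16, 2.14% with no dye term and 2.53% with a sex term. With the channels as 8 separate RNAs the share was 1.8%, against 1.24% as reported. The cause of the changes in calls was not tested. Igsf5 was called in 8 of 9 alternatives, and its adjusted p was 0.184 with the deposited table. The reported fit is paired by array, and the fit of the channels as 8 separate RNAs is the unpaired one. Cldn2 was limited by signal over background.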

Other observations

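Claudin genes lie in neighbouring groups on the chromosomes, and 1 of these groups was negative on every array. The probes of Cldn13, Cldn4 and Cldn3 follow each other on chromosome 5 (mm9), with 30.6 kb between the Cldn13 probe and the nearer Cldn4 probe and 41.1 kb between Cldn4 and Cldn3. All 4 probes of these 3 genes were negative on all 4 arrays, with ratios of -0.91 for Cldn3, -0.23 and -0.36 for Cldn4 and -0.31 for Cldn13. The same sign on all 4 arrays held for 15.3% of all genes. Cldn13 had low levels, from 7.23 to 7.50 in cKO and from 7.45 to 8.02 in control RNAs. Its ratio was -0.77 in replicate 2 and between -0.28 and -0.075 in the others. None of the 4 probes passed the test, and the group was picked after its values were seen. In other groups the values were smaller: Cldn8 and Cldn17, 54.9 kb apart on chromosome 16, had 0.052 and -0.17, and Cldn6 and Cldn9, 1.08 kb apart on chromosome 17, had -0.14 and -0.13. The Cldn1 probe lies 465 kb from that of Trp63 on chromosome 16, at ratios of -0.012 and -1.37.

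The genes most alike to Cldn3 and Cldn23 were looked up after their values were seen, since no claudin passed the test. By root mean square distance over the 4 log2 ratios, Cldn3 was nearest to Apoc1 (0.138), an apolipoprotein gene, Cfc1 (0.167), a Nodal co-receptor gene, and Hr (0.174), the hairless gene. These 3 passed the test, with ratios of -0.98, -1.05 and -0.92. Cldn23 was nearest to Trmt61b (0.035), Nupr1 (0.043) and Papln (0.057), of which Papln passed the test at -0.52 (adjusted p = 0.0423). The distance is a description over 4 arrays.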
